A study of Drosophila melanogaster with 36 samples.

Results

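The odorant-binding protein genes described here are 10 of the 52 genes of the family in a table of 14011 genes measured in heads of Drosophila melanogaster. They are Obp99a, Obp99b, Obp99c, Obp56d, Obp44a, Obp19d, Obp28a, lush, Obp83a and Obp83b. The choice was by gene identifier and applied no cut on values, but earlier results of these data were known when it was made. The flies were of the wild-type strain Canton-S, kept at 18C, 25C or 29C (degrees Celsius) under 12 h of light and 12 h of darkness for at least 3 days, and no group carried a transgene or a drug. Heads were collected at 6 zeitgeber times (ZT, hours after lights on), namely ZT3, ZT7, ZT11, ZT15, ZT19 and ZT23, and polyadenylated RNA was sequenced from its 3′ ends. The labels list 36 libraries, 2 for each temperature and time, but the table has 1 column for each of these 18 groups. The labels give neither the age nor the sex of the flies. The question was how ambient temperature changes gene expression and its daily course.

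Odorant-binding proteins are small, soluble proteins that support cells of insect sense organs secrete into the fluid around the sensory dendrites, where they bind hydrophobic molecules and are thought to carry them to receptors or clear them. Several members of the fly family are also made outside the antenna, in taste organs, fat body or brain glia. The segment of the antenna that bears most olfactory sensilla is a small part of a whole head.

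The columns held 736544 to 2750250 reads on genes, and 8792 genes passed the filter on low reads, all 10 of these genes among them. Values are normalised reads, the deposited signal, in which 1 read was worth between 0.679 and 2.30 units depending on the column. The 25C ZT7 and 29C ZT19 columns stood apart for Cyp4g1, a cytochrome of the oenocytes, with 2021 and 1633 normalised reads against at most 58.9 in any other column. Photoreceptor genes summed to 12953 normalised reads or more in every column, whereas Orco, the co-receptor of olfactory neurons, had 28 reads over all 18 columns and Or42b and Or47b had none. Of 8 genes of antennal olfactory neurons in the table, 6 had a read and 3 were tested. At 18C, 25C and 29C, Snmp1 had 56, 36 and 33 reads, Ir25a 15, 45 and 37, and Ir76b 7, 46 and 16. In bulk heads, fewer cells of a type and less RNA per cell cannot be told apart.

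The 10 genes spanned more than 3 orders of magnitude. Per kilobase of coding sequence, the mean level at 25C was 10667 normalised reads for Obp99c, 8445 for Obp19d, 6917 for Obp44a, 2876 for Obp56d, 1192 for Obp99a and 664 for Obp99b. It was 41.2 for Obp28a, 19.1 for Obp83a, 4.94 for Obp83b and 3.65 for lush. Reads from 3′ ends need not scale with coding length. The undivided means at 25C gave the same order, from 4832 normalised reads for Obp99c to 1.68 for lush. The 6 abundant genes thus held almost all reads of the set, while the 3 genes best known from the antenna (lush, Obp83a and Obp83b) lay near the limit of detection. Together the 10 genes took 1.16% ± 0.06 (SD, n = 6 columns) of all reads at 18C, against 0.846% ± 0.043 at 25C and 0.846% ± 0.083 in the 29C columns, and of the reads of the whole family they took 81.7%, 70.1% and 71.0%.

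Of the 10 genes, 6 changed in at least 1 comparison of temperatures, as did 36.5% of all genes tested. Between 18C and 25C, 5 genes were higher in the cold (Obp99a, Obp28a, Obp44a, Obp99b and Obp99c) and 1 was lower (Obp19d) at an adjusted p under 0.05 in limma, against 8.08% of all 8792 genes tested that were higher and 5.32% that were lower (13.4% in all). Between 29C and 25C, 2 genes were higher at 29C (Obp99b and Obp44a) and none lower, against 10.6% of all genes higher and 6.71% lower (17.3% in all). Between 18C and 29C, 4 were higher at 18C (Obp99a, Obp99c, Obp44a and Obp28a) and 1 lower (Obp19d), against 13.3% higher and 14.6% lower (27.9% in all). The median log2 change of the 10 genes was 0.76, 0.36 and 0.17 in these comparisons, beside -0.01, 0.04 and -0.06 over all genes. The comparisons share columns, so their counts are not independent.

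**Figure D1:**
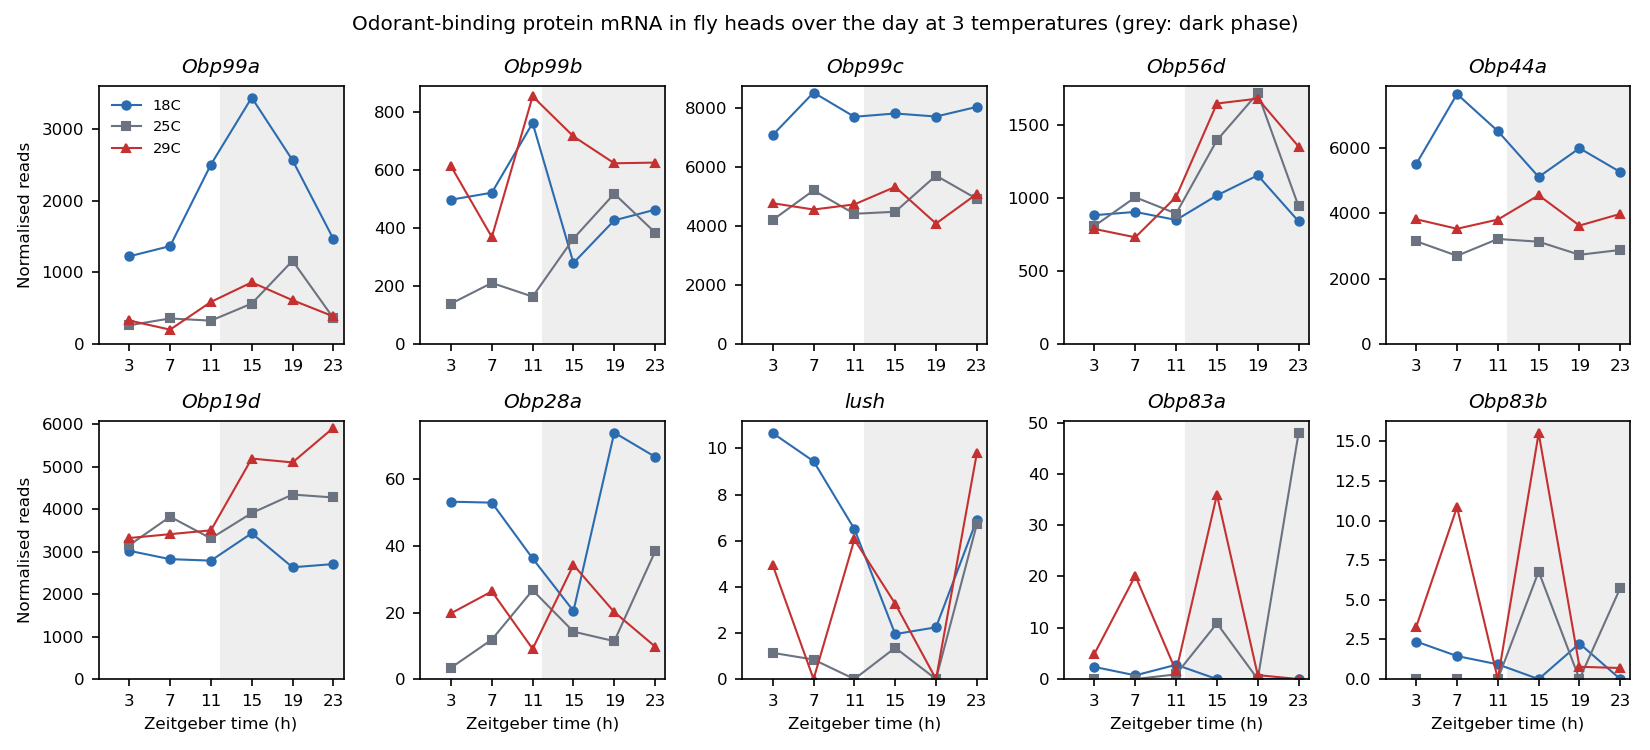
Normalised reads (vertical axis, linear from 0) of the 10 genes at each zeitgeber time in hours (horizontal axis), 1 point per column, with blue circles for 18C, grey squares for 25C and red triangles for 29C, and the dark phase shaded. Every 18C point of Obp99a, Obp99c and Obp44a lies above every 25C and 29C point, and Obp83a and Obp83b are near 0 outside a few columns.

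On chromosome arm 3R, 3 of the genes lie within 45151 bases: Obp99a (CG18111, dm3 coordinates 3R:25497382-25498057, forward strand), Obp99c (CG7584, 3R:25511456-25512504, reverse strand) and Obp99b (CG7592, 3R:25541973-25542532, reverse strand). They are neighbours in the genome, but they did not share one response to temperature.

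Among the genes of the set that passed a temperature test, Obp99a had the largest change on the log2(value + 1) scale. By the ratio of means Obp83a, at few reads, differed more (0.0985 for 18C over 25C) without passing. The values of Obp99a at 18C were 1225, 1367, 2503, 3436, 2563 and 1467 normalised reads from ZT3 to ZT23. At 25C they were 265, 359, 329, 567, 1163 and 365, and at 29C 331, 203, 590, 862, 613 and 388. Every 18C column was above every column of the other temperatures. Groups did not overlap, in either direction, in 6.45% of genes tested for 18C against 25C and in 12.7% for 18C against 29C. The mean at 18C was 2093 ± 879 (SD, n = 6 time points), 4.12-fold that at 25C and 4.20-fold that at 29C. The log2 changes were 2.13 (SE 0.17, adjusted p = 1.59e-08, limma) and 2.11 (adjusted p = 1.09e-09). Between 18C and 25C this was the second smallest p of the 8792 genes. The means at 25C (508 ± 336) and 29C (498 ± 237) differed by less than the spread between columns, with a 95% interval of -0.33 to 0.37 on the log2 scale.

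Obp99a also had the smallest p of the 10 genes in the test for a daily rhythm. A cosine and sine of 24 h common to the 3 temperatures gave an adjusted p of 6.12e-05 (limma F test), with a peak at ZT16.4 ± 0.61 (SE) and a peak-to-trough ratio of 3.01. Of all genes, 0.466% passed this test, and Obp56d was the other gene of the set that did. Fitted at each temperature alone, the peak of Obp99a fell at ZT15.2 ± 0.26 at 18C, ZT17.7 ± 1.52 at 25C and ZT16.3 ± 1.02 at 29C, and the ratios were 2.93, 3.11 and 3.35. The level therefore changed about 4-fold between 18C and the warmer temperatures while the fitted night peak was within 3 h at all of them, and the light-dark difference did not pass the test for a change between temperatures (adjusted p = 0.928, limma F test).

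Obp99c, the most abundant of the 10 genes per coding length, was steady through the day and higher in the cold. It had a lowest, median and highest value of 7094, 7773 and 8534 normalised reads at 18C, 4214, 4710 and 5718 at 25C, with 4092, 4762 and 5336 as the 29C values. The 18C columns did not overlap either other group. The mean was 1.62-fold that at 25C (log2 change 0.70, SE 0.09, adjusted p = 5.3e-06, limma) and 1.64-fold that at 29C (log2 change 0.72, adjusted p = 9.32e-07). Its light-dark change was -0.06 on the log2 scale, with a 95% interval of -0.21 to 0.09. The table places 47 bases of Obp99c within Gycalpha99B, a guanylyl cyclase subunit gene, which had 7.78% as many reads and means of 700 ± 82.5, 374 ± 41.1 and 325 ± 57.5 at the 3 temperatures. The use of strand in counting is not stated, so reads of the overlap cannot be assigned.

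Obp99b, known from flies as a male-biased gene of the head fat body, was lowest at 25C. At 18C its 6 columns from ZT3 on held 497, 522, 761, 280, 426 and 463 normalised reads. At 25C they held 140, 211, 164, 364, 518 and 384, and at 29C 613, 369, 853, 715, 623 and 625. The 25C group overlapped both others. The log2 change was 1.21 between 29C and 25C (SE 0.24, adjusted p = 0.000844, limma), with 29C higher at 6 of 6 time points, and 0.82 between 18C and 25C (SE 0.24, adjusted p = 0.0235), with 18C higher at 4 of 6. The call of 18C over 25C was lost in 12 of 29 alternatives, among them edgeR on the recovered reads (adjusted p = 0.0576). The higher level at 29C no longer passed against 25C without the 2 columns that stood apart (adjusted p = 0.0623).

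The daily course of Obp99b differed in sign between temperatures, short of the threshold. On the log2 scale, light minus dark was 0.61 at 18C but -1.30 at 25C, with -0.18 at 29C. At 18C the 3 light-phase columns (497 to 761) were all above the 3 dark-phase columns (280 to 463), and at 25C all below (140 to 211 against 364 to 518). The phases did not overlap in 10.6% of all genes tested at 18C and in 12.2% at 25C. The test of the difference between temperatures gave an adjusted p of 0.0615 (limma F test), the second smallest p of all genes in a test that 1 gene (0.0114%) passed, and 0 to 23 genes when 1 column was left out. It ranged from 0.0108 to 0.417 over the alternatives.

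Obp44a and Obp19d, both abundant, moved in opposite directions with cold. Obp44a (CG2297, dm3 2R:4021870-4022596), a family member made by glia of the fly nervous system, had a lowest, median and highest value of 5108, 5744 and 7638 normalised reads at 18C, 2701, 3006 and 3214 at 25C, and 3526, 3812 and 4549 at 29C. No pair of temperatures overlapped, which also held for 8.01% of genes between 29C and 25C, and the order was 18C, 29C, 25C at all 6 time points. The mean at 18C was 2.02-fold that at 25C (log2 change 1.00, SE 0.10, adjusted p = 3.78e-07, limma) and 1.54-fold that at 29C (log2 change 0.62, adjusted p = 2.88e-05). The mean at 29C was 1.31-fold that at 25C (log2 change 0.39, adjusted p = 0.00639), which was lost when the columns were scaled by library size alone (log2 change 0.20, adjusted p = 0.163) and without the 2 columns that stood apart (0.34, adjusted p = 0.104). Of 6 glial marker genes, none passed between 18C and 25C, 3 were lower at 29C than at 25C, and 5 were higher at 18C than at 29C. Gs2 stood at 1428 ± 135, 1301 ± 140 and 658 ± 63.3 normalised reads, and the list summed to 1721 to 2262, 1616 to 2001 and 855 to 1062. The part of glial content in the Obp44a values was not tested. A stretch of 10 bases at the end of Obp44a overlaps Pabp2, which had 1.17% as many reads.

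Obp19d (CG1668, dm3 X:20290640-20292009), expressed in chemosensory organs of the fly head, was lower at 18C than at both other temperatures. It had a lowest, median and highest value of 2631, 2805 and 3432 normalised reads at 18C, 3150, 3864 and 4341 at 25C, with 3319, 4299 and 5912 as the 29C values. The groups overlapped at their edges, but 18C was below both other temperatures at 6 of 6 time points. The log2 change was -0.57 between 18C and 29C (SE 0.11, adjusted p = 0.000218, limma) and -0.39 between 18C and 25C (adjusted p = 0.0162), whereas 29C minus 25C was 0.18 with a 95% interval of -0.04 to 0.40. The call of 18C under 25C was lost in 5 of 29 alternatives. It was lost without the 25C ZT7 column (adjusted p = 0.0805, limma), without the 18C ZT19 column (0.0676) and without the 18C ZT23 column (0.0615). The largest adjusted p were 0.12 without the 25C ZT7 and 29C ZT19 columns and 0.137 without the ZT19 columns. At 29C the light-phase columns (3319 to 3500) lay below the dark-phase columns (5098 to 5912), a separation seen in 18.2% of all genes there. The phases also separated at 25C (3150 to 3821 against 3907 to 4341), as in 12.2% of all genes there. At 18C they overlapped (2787 to 3018 against 2631 to 3432). The light-dark change over all temperatures was -0.32 and did not pass (adjusted p = 0.141), nor did its difference between temperatures (adjusted p = 0.251).

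**Figure D2:**
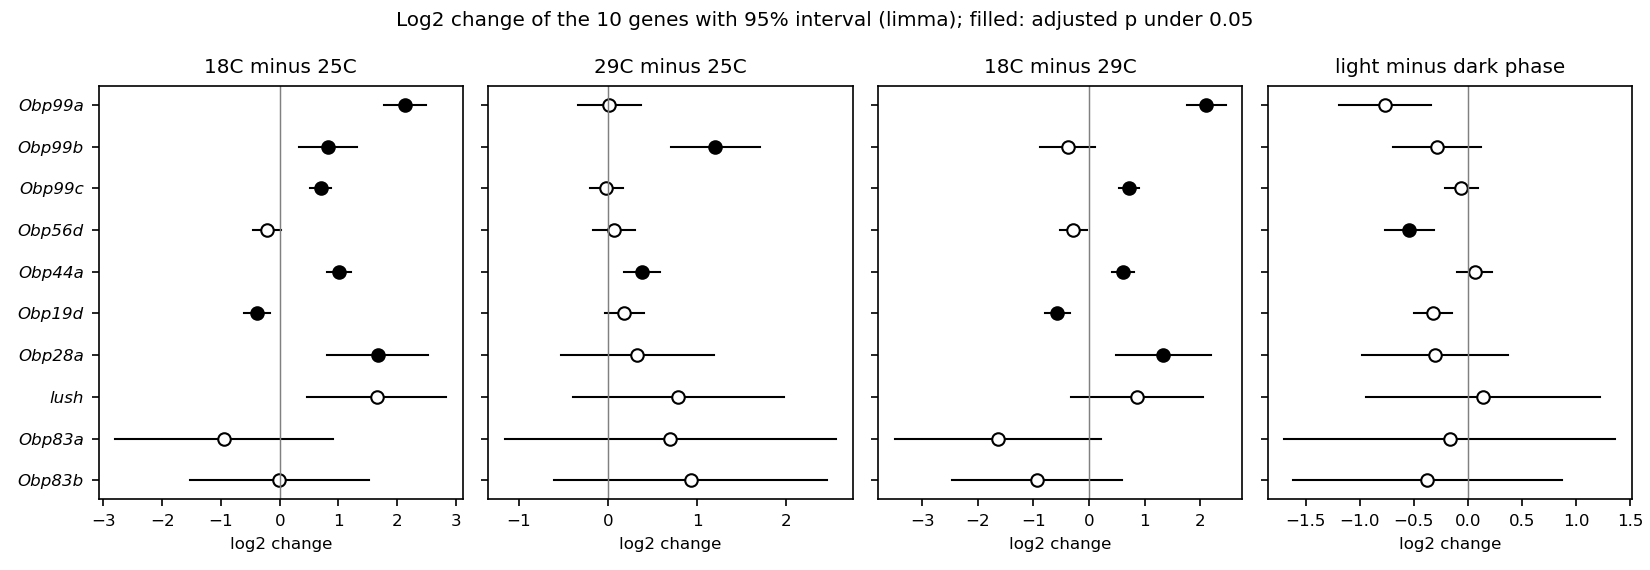
Log2 change of each of the 10 genes (rows) with its 95% interval from limma in 4 comparisons (panels), filled where the adjusted p is under 0.05 and open where it is not. Obp99a, Obp99c and Obp44a lie to the right in both comparisons of 18C, Obp19d to the left, and the intervals of lush, Obp83a and Obp83b are the widest.

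Obp56d was the gene of the set that passed the test of light against dark. Obp99a had a larger log2 change (-0.77, 95% interval -1.19 to -0.35) but did not pass (adjusted p = 0.145, limma). Obp56d (CG11218, dm3 2R:15590635-15591300) is expressed in olfactory and taste organs of the fly head. Its 6 columns from ZT3 on held 885, 907, 852, 1020, 1158 and 843 normalised reads at 18C. At 25C they held 811, 1008, 896, 1399, 1721 and 946, and at 29C 791, 733, 1010, 1650, 1684 and 1355. The highest value was at ZT19 at each temperature, and the phases separated fully at 29C only, as in 18.2% of all genes there. The light-phase mean of 877 ± 93.1 (SD, n = 9) was below the dark-phase mean of 1309 ± 334, a log2 change of -0.54 (SE 0.11, adjusted p = 0.0236, limma), in a test that 0.273% of genes passed (0.091% higher and 0.182% lower in the light). That call was lost in 11 of 28 alternatives, with an adjusted p of up to 0.454 when the ZT19 columns were left out.

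The fitted peak of Obp56d was at ZT17.6 ± 0.73 (SE) with a peak-to-trough ratio of 1.81 (adjusted p = 0.00346, limma F test), and this call was lost without the 29C ZT19 column (adjusted p = 0.108). The ratio was 1.25, 1.87 and 2.54 from the coldest to the warmest group, but the difference in light-dark change between temperatures did not pass (adjusted p = 0.426). Means over the day were 944 ± 123, 1130 ± 354 and 1204 ± 420 at 18C, 25C and 29C, and no temperature comparison passed, the closest being 18C against 29C (log2 change -0.28, adjusted p = 0.0722). Obp56e, which lies on the same arm at dm3 2R:15599850-15600466, was the one other family gene that passed the light-dark test (log2 change -0.42, adjusted p = 0.00945) and the shared rhythm test (adjusted p = 0.00231), with a fitted peak at ZT18.1 ± 0.52. A rhythm test within 1 temperature, an exact JTK test on 6 values whose smallest possible p is 0.0333, was passed at that p by Obp99a and lush of 9 genes at 18C, by none of 8 genes at 25C and by Obp56d of 10 genes at 29C, beside 3.43%, 3.53% and 3.59% of all genes. These p-values are not adjusted, and random orders reach 0.0333 at about the share of all genes that passed. lush had 35 reads at 18C, with 3 of 6 columns at 3 reads or fewer. Obp83a at 18C and 25C and Obp83b at 25C had more than 2 columns at 0 and were not run. Among the sex-biased marker genes, the male-biased Cyp4d21 passed the light-dark test (-1.02, adjusted p = 0.00945, limma) and the shared rhythm test (adjusted p = 0.0417), and the female-biased Yp2 passed the latter (adjusted p = 0.0307). Their part in the daily changes of Obp99a and Obp56d was not tested.

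Obp28a, lush, Obp83a and Obp83b were scarce. Obp28a (CG6641, dm3 2L:7496785-7497360), a gene of antennal support cells, had a lowest, median and highest value of 20.5, 53.2 and 74.1 normalised reads at 18C, 3.41, 13.1 and 38.3 at 25C, with 9.08, 19.95 and 34.3 as the 29C values. The groups overlapped, but 18C was higher than 25C at 6 of 6 time points. The mean was 2.87-fold that at 25C (log2 change 1.67, SE 0.42, adjusted p = 0.00796, limma) and 2.54-fold that at 29C (1.34, adjusted p = 0.0176). The first call was lost in 4 of 28 alternatives, among them the fit without the 25C ZT7 column (adjusted p = 0.0628), and the second in 7 of 28 alternatives (adjusted p up to 0.138). The changes are on the log2(value + 1) scale, which understates those of low genes.

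lush (CG8807, dm3 3L:19597497-19599190) encodes the protein needed in trichoid sensilla for the response to the male pheromone cis-vaccenyl acetate. It had 71 reads in all: 9, 13, 7, 2, 1 and 3 from ZT3 on at 18C, 1, 1, 0, 2, 0 and 7 at 25C, and 3, 0, 4, 4, 0 and 14 at 29C. Most 25C columns were at or under 3 reads, so its differences were poorly resolved. Its mean was 6.29 ± 3.60, 1.68 ± 2.53 and 4.01 ± 3.77 normalised reads from the coldest to the warmest group. The change between 18C and 25C was 1.65 with a 95% interval of 0.47 to 2.84, higher at 18C at 6 of 6 time points, and did not pass over all genes (adjusted p = 0.0579, limma). It passed without the 18C ZT15 column (0.0424), the 18C ZT23 column (0.037) or the 29C ZT7 column (0.0375).

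Obp83a and Obp83b (CG11421 and CG11422, known as OS-F and OS-E) are adjacent genes of olfactory sensilla on 3R, at dm3 3R:1797870-1800967 and 3R:1801897-1802539, 929 bases apart. Their reads fell in the same few columns. Of the 135 reads of Obp83a, 123 lay in 4 columns, with 16 at 25C ZT15, 50 at 25C ZT23, 13 at 29C ZT7 and 44 at 29C ZT15. No other column had more than 3. The same 4 columns held 42 of the 52 reads of Obp83b, in counts of 10, 6, 7 and 19. At 18C neither gene had more than 3 reads in any column, and a column of 0 reads allows up to 3.

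Other antennal genes were not all concentrated there. Those 4 columns held 48 of 52 reads of Obp19a and 49 of 64 of a10, both expressed in the antenna, but 6 of 28 of Orco and 13 of 71 of lush. Obp28a was highest at 18C (up to 74.1 normalised reads), but within 25C its highest column was ZT23 (38.3) and within 29C ZT15 (34.3). lush was highest at ZT23 within both 25C (7 reads) and 29C (14 reads), and the latter is not among the 4 columns. No temperature comparison of Obp83a or Obp83b passed, with 95% intervals as wide as -3.50 to 0.21 for Obp83a between 18C and 29C, where the log2 change was -1.65 (adjusted p = 0.185, limma, and 0.0425 without the 29C ZT23 column). How the 2 labelled libraries were joined into a column, and the cause of the pattern, was not tested.

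**Figure D3:**
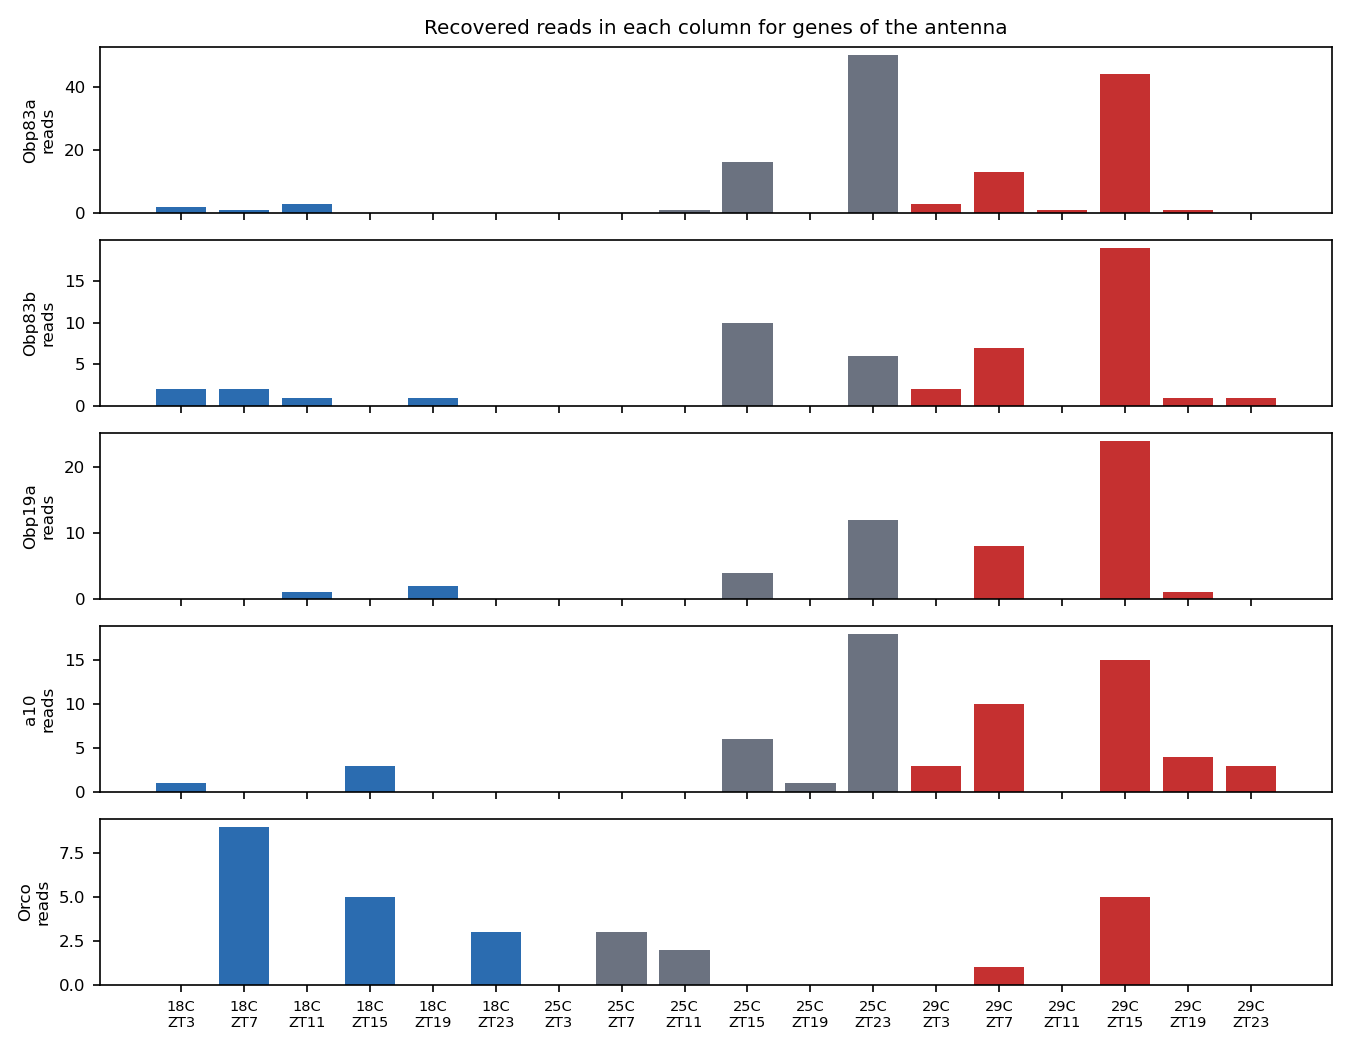
Recovered reads of Obp83a, Obp83b, Obp19a, a10 and Orco (panels, linear axes from 0, with different ranges) in each of the 18 columns, ordered by temperature and zeitgeber time and coloured blue for 18C, grey for 25C and red for 29C. The first 4 genes peak in the 25C ZT15, 25C ZT23, 29C ZT7 and 29C ZT15 columns, and Orco does not.

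Markers of tissues and sexes that make some of these proteins also moved with temperature. Of 6 genes of the head fat body, 3 were higher at 18C than at 25C, including the larval serum protein gene Lsp2 (8765 ± 2675 against 3737 ± 1696 normalised reads, log2 change 1.44, adjusted p = 0.00208, limma) and Fbp1 (2.32, adjusted p = 0.00594). Cyp4g1, the oenocyte gene, was also on that list and was lower at 18C than at 25C without passing (-2.53, adjusted p = 0.07, limma). Between 18C and 29C, 2 genes of the list were higher at 18C and 1 was lower. The summed level of that list was 9571 to 16713 normalised reads at 18C, 3266 to 9026 at 25C and 4850 to 11357 at 29C. The 18C range lay above that at 25C and overlapped that at 29C. Of 4 female-biased genes, the yolk protein genes Yp2 and Yp3 and the fat body gene fit exceeded their 25C level in the 18C columns (0.58, 0.65 and 0.86), while sxe2, a male-biased gene, was lower at 18C (-1.11) and higher at 29C (0.51). The other male-biased gene in the table, Cyp4d21, passed neither comparison (-0.59 and -0.42). The female-biased list summed to 160210 to 245738, 113378 to 267057 and 106352 to 180755 normalised reads at 18C, 25C and 29C. The male-biased list, with 2 genes in the table, summed to 110 to 235, 259 to 405 and 313 to 562, whereas the male-biased Obp99b was lowest at 25C. The part of cell makeup or sex in the results for the odorant-binding protein genes was not tested.

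Of the remaining 42 genes of the family, 31 had a read and 20 were tested. None was higher at 18C than at 25C and 3 were lower, 3 were higher and 4 lower at 29C than at 25C, and 3 were higher and 4 lower at 18C than at 29C. Their median log2 change between 18C and 25C was -0.25, beside 0.76 for the 10 genes, and the difference between the lists was not tested.

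Obp19b, 1803 bases from Obp19d on X, had the largest change of the remaining family genes. It rose from 49.7 ± 8.77 normalised reads at 18C through 96.0 ± 27.5 at 25C to 237 ± 29.0 at 29C (log2 change between 18C and 29C -2.24, SE 0.15, adjusted p = 4.42e-11, limma). Obp56e rose in the same order (2465 ± 373, 3530 ± 825 and 4201 ± 771), and Obp56a was higher at 29C than at 25C (0.77, adjusted p = 0.000239). Obp57c went the other way, with 308 ± 21.7, 349 ± 21.5 and 199 ± 21.0 normalised reads and a log2 change of -0.81 between 29C and 25C. Obp56h was lower at 18C than at 25C (-0.58, adjusted p = 0.0404).

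**Figure D4:**
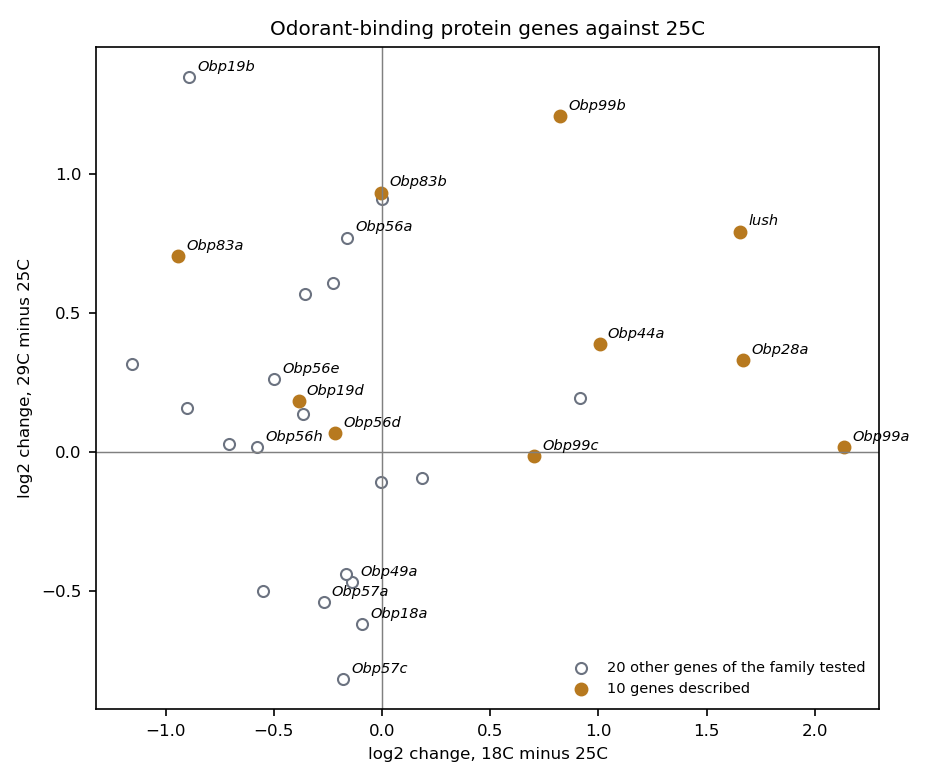
Log2 change between 18C and 25C (horizontal) against that between 29C and 25C (vertical) for the 10 genes (filled) and the 20 other odorant-binding protein genes tested (open), with names for the 10 genes and for those that passed a temperature test. Both axes share the 25C columns, so the points cannot show a relation between them, and Obp99a lies farthest to the right at 2.13 while Obp19b lies highest at 1.35.

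Other olfactory genes were mostly too scarce to test. Of 127 odorant receptor, ionotropic receptor and accessory genes in the table, 69 had a read and 18 were tested, of which 3 were lower at 18C than at 25C and none higher. At 29C against 25C 3 were higher and 2 lower, and at 18C against 29C 2 were higher and 4 lower. The most abundant to change were Est-6, an esterase that degrades pheromone esters in the antenna, with 342 ± 66.3, 613 ± 85.6 and 920 ± 77.0 normalised reads at 18C, 25C and 29C, and EbpIII, a small secreted carrier of another family, with 9379 ± 524, 9179 ± 1097 and 11886 ± 1957. The receptor Or47a fell by 1.99 on the log2 scale from 25C to 29C, at a mean of 20.1 and 3.68 normalised reads, and Ir60d fell by 0.72. No gene of this list passed the light-dark test.

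The genes nearest in pattern to the 2 of the 10 genes with the smallest p between 18C and 29C were found by correlation of log2 values over the 18 columns among 6999 genes with a mean of 10 reads or more. For Obp99a they were CG4752 (r = 0.92), CG9577 (0.92) and CG3609 (0.90), and for Obp99c Pgk and Mdh1 (0.95 each), enzymes of glycolysis and of malate metabolism, and CG3609 (0.95). The points share columns, depth and the large step at 18C. CG3609 had 443 ± 52.9, 192 ± 39.0 and 176 ± 32.5 normalised reads at 18C, 25C and 29C.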

How the data were processed

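The authors made 3′ RNA-seq libraries from polyadenylated RNA of fly heads and deposited 1 table of normalised read signal for 21081 transcripts in 18 columns. The labels' processing notes name Bowtie2, TopHat, Cufflinks and dm3, with no version or role, and the use of strand or of molecular identifiers is not given in the sources used here. Each gene was represented by its transcript row of highest read total. All values of a column were whole multiples of 1 step within 0.001 reads (100% of values), so whole reads were recovered. The columns called ZT19 were assigned to the groups labelled zt18. How 2 labelled libraries became 1 column is not stated, and the libraries' separate values were not analysed here.

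Signal was tested as log2(value + 1) with limma 3.58.1 in R 4.3.3 (eBayes with trend) over 18 columns and 8792 genes kept by filterByExpr, with temperature and time point as factors and Benjamini-Hochberg adjustment at 0.05. Each temperature has 6 time points but no replicate columns, and p-values rest on what the additive fit leaves. Light (ZT3, ZT7, ZT11) was compared with dark, with temperature as a factor, and rhythm was tested with a 24 h cosine and sine. edgeR 4.0.16 with TMM on the recovered reads was an alternative, beside other scalings, pseudocounts of 0.1 and 5, other filters and fits that left columns out. Exact JTK, run in Python 3.11.15 with numpy 2.4.6, required p below 0.05 and a highest value above 1.5 times the lowest, against all orders of the 6 values. The fits and JTK were tested on simulated data.

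All 10 genes were named throughout. For the other lists, counts were given with values for at most 3 genes per comparison, and for the 3 nearest genes of 2 members. Any other gene was named after its values were seen. The members and lists were chosen with earlier results of these data known. Strand and coding length came from the BDGP6 annotation, and coordinates are those of the table, counted from 1. Precision was limited by depth for genes with few reads, and a floor of 3 reads covers counting error only.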

Additional observations from a re-analysis of the deposited data

Results flagged for a closer look

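In 30 checks of a gene at 1 temperature, 3 had a column far from the other 5. For values drawn from 1 normal distribution about 1 in 20, or 1.5, would be flagged. The columns are different times of day and some genes had few reads, so that rate need not hold here. Obp99a at 25C had 1163 normalised reads at ZT19, against 567 in the next column and 265 in the lowest. lush at 25C had 6.71 at ZT23, against 1.36 in the next column. Obp83a at 25C had 47.9 at ZT23, against 10.9 in the next column, and this is the same column as for lush. The causes were not tested.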

How the results depend on the processing

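The changes of Obp99a, Obp99c and Obp44a between 18C and both other temperatures, and of Obp19d between 18C and 29C, passed in all 29 alternatives. Counts of the 10 genes that passed moved by over 1.5 times as follows, and the causes were not tested. Between 18C and 25C the count fell from 6 to 3 without the 25C ZT7 column, without that and the 29C ZT19 column, and without the ZT19 columns, with a range of 3 to 7 when 1 column was left out. Between 29C and 25C it fell from 2 to 1 when scaled by library size and to 0 without the 25C ZT7 and 29C ZT19 columns (2 to 2 with 1 column left out, and 4 to 6 between 18C and 29C). Between light and dark it fell from 1 to 0 with a pseudocount of 0.1, with no filter, without the 25C ZT7 and 29C ZT19 columns and without the ZT19 columns, and rose to 2 without ZT11 and ZT23, where Obp99a passed (log2 change -1.36, adjusted p = 7.78e-05, limma). With 1 column left out it was 0 to 1, and 0 without 25C ZT3, ZT7 or ZT19 or 29C ZT3, ZT7, ZT15 or ZT19. The difference between temperatures in light-dark change went from 0 to 1 (Obp99b) with at least 10 reads in every column, and was 0 to 1 with 1 column left out, with 1 without 18C ZT15 or ZT19 or 29C ZT3, ZT7 or ZT11. The shared rhythm went from 2 to 1 (Obp56d lost) without the 29C ZT19 column, without the 25C ZT7 and 29C ZT19 columns and without the ZT19 columns, with a range of 1 to 2.

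Scaling by library size moved the median log2 change of all genes to -0.14 between 18C and 25C and to -0.13 between 29C and 25C, and the share of higher among called genes from 60.3% to 34.5% and from 61.2% to 31.0%. Against 25C, Obp56d then passed at 18C (-0.35, adjusted p = 0.0209). Between light and dark that share went from 8 of 24 genes to 12 of 20. Over all genes, 684 in place of 1178 passed between 18C and 25C without the ZT19 columns, and 935 in place of 1520 between 29C and 25C without the 2 columns above. Between light and dark 13 passed in edgeR, 12 with a pseudocount of 0.1 and 9 with no filter, with a range of 0 to 27 with 1 column left out, and the shared rhythm went from 41 to 13 without the ZT19 columns. The difference between temperatures in light-dark change was passed by 1 gene, by 7 with at least 10 reads in every column, by 0 in edgeR, with library size scaling, without the 25C ZT7 and 29C ZT19 columns and without the ZT19 columns, and by 0 to 23 with 1 column left out (23 without 29C ZT3).

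No called change of the 10 genes turned in sign, but some that had not passed did. Obp83b between 18C and 25C was 0.75 with a pseudocount of 0.1. Between 29C and 25C, scaling by library size gave -0.17 for Obp99a, -0.12 for Obp56d and -0.0041 for Obp19d, Obp99a was -0.035 with TMM and -0.056 in edgeR, and Obp99c was 0.077 without the 25C ZT7 and 29C ZT19 columns and 0.078 without the ZT19 columns. Between light and dark, Obp99c was 0.024 when scaled by library size, Obp83a 0.66 with a pseudocount of 0.1, and lush -0.042 in edgeR, -0.10 without those 2 columns and -0.46 without the ZT19 columns. With 1 column left out, the range crossed 0 for Obp83a (-1.49 to 0.15) and Obp83b (-0.40 to 0.60) between 18C and 25C. It did so between 29C and 25C for Obp99a (-0.14 to 0.21), Obp99c (-0.059 to 0.058), Obp56d (-0.018 to 0.18) and Obp28a (-0.057 to 0.68), and between light and dark for lush (-0.11 to 0.42) and Obp83a (-0.52 to 0.38). No paired analysis was possible because the deposited columns carry no replicate number. Depth limited lush, Obp83a and Obp83b, with 71, 135 and 52 reads in all.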
